A study of Mus musculus with 6 samples.

Results

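The genes described are 10 transcripts of the aorta: Srf, the myocardin family (Myocd, Mkl1 and Mkl2), the TEAD factors (Tead1, Tead2, Tead3 and Tead4) and the TEAD coactivators Yap1 and Wwtr1. They were chosen by gene symbol, and all 10 were found among the 29752 genes of each deposited file. Polyadenylated RNA came from aortas of C57BL/6 mice, which began 7 weeks of normal diet when 8 weeks old and were 15 weeks old at sampling. There were 3 libraries labelled PALMD+/-, from mice heterozygous for Palmd, the gene of the paralemmin-family protein palmdelphin, and 3 libraries from wild-type mice. The labels leave out how the Palmd allele was altered and whether any libraries share an animal. The p-values therefore measure the spread between these samples, which may be technical.

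SRF is a DNA-binding protein that recognises the CArG box and has little effect of its own until a cofactor joins it. Myocardin, restricted to smooth and cardiac muscle, and the related MKL1 and MKL2 (also called MRTF-A and MRTF-B), which leave the cytoplasm when actin polymerises, direct SRF to contractile and cytoskeletal genes, whereas the ternary complex factors of the ELK group direct it to immediate early genes. TEAD proteins bind the MCAT element and act mainly through YAP and TAZ (the product of Wwtr1), which the kinases of the Hippo pathway keep out of the nucleus. In the aorta both systems respond to stretch and to tension in the actin cytoskeleton.

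Promoter sequence was available from RefSeq (GRCm38.p6) for 7 of the 10 genes, with no entry for Myocd, Tead1 and Tead4. Windows ran from 250 bases before to 50 bases after each start site. They were searched on both strands for exact matches to the CArG box, CCWWWWWWGG with W standing for A or T. The MCAT core was searched as CATTCC or its reverse complement GGAATG. The CArG box was in 1.63% of all 32851 windows and the MCAT core in 14.7%. Counted by gene, with a match in any window of the gene, the shares were 1.81% and 16.6% of genes with an entry. Among the 7 genes, Srf had CArG boxes, and Mkl2, Tead3, Yap1 and Wwtr1 had the MCAT core in at least 1 window. The 250 bases before the start of Srf are shown because they carry boxes of the kind that SRF itself binds. Those of Ankrd1 and Amotl2 are shown because these genes are described below as YAP and TAZ targets whose fitted differences have opposite signs. For each of these genes the first window that held the searched motif was taken, so the motif's presence was fixed by that choice. Distances refer to the start site of that window, and any other start site of the gene is not shown. Each is written from 5′ to 3′ on the gene's strand, with the searched motif in capitals. The Srf window is chr17:46556163-46556412 on the minus strand, that of Ankrd1 chr19:36119845-36120094 on the minus strand, and that of Amotl2 chr9:102717554-102717803 on the plus strand.
Srf: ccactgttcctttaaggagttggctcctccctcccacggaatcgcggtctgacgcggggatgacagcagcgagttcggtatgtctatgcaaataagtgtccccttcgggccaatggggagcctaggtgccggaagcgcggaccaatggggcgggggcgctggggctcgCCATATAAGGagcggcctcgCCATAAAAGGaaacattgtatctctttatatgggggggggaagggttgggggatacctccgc
Ankrd1: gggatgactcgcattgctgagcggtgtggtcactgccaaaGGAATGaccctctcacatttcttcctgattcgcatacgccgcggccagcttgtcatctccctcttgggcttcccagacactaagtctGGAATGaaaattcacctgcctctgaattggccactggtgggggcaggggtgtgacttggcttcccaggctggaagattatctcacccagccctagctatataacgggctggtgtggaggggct
Amotl2: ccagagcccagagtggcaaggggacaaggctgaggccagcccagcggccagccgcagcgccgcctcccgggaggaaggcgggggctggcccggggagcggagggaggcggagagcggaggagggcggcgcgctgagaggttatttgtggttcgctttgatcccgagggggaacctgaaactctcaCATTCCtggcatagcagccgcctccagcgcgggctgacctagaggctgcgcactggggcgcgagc
The CArG boxes of Srf began 82 and 62 bases before the start site. The MCAT cores began 210 and 123 bases before the start of Ankrd1 and 65 bases before that of Amotl2. None of the 3 windows held the other motif, and a match describes the letters and not binding.

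The values are FPKM, reads scaled by gene length and library size, as calculated by the authors, with 17283929 to 18372097 reads behind each library. PALMD+/- replicate 2 stood apart from the rest, with a mean correlation to the other libraries of 0.930 over 12620 genes, against 0.960 to 0.971 for the others. Of 6 smooth muscle markers, the summed level was 9953, 4721 and 10179 FPKM in PALMD+/- replicates 1 to 3, against 9940, 8764 and 7062 FPKM in wild type replicates 1 to 3. Tagln, a defining marker of this list, was at 2.12 to 4.29 FPKM in all 6 libraries, where Acta2 was at 3701 to 8367 FPKM. The 8 white adipocyte markers summed to 525, 2274 and 779.8 FPKM in PALMD+/- replicates and to 823, 1317 and 1867 FPKM in wild type replicates. The 6 endothelial markers summed to 675, 203 and 644.5 FPKM in PALMD+/- replicates, against 723, 639.5 and 656 FPKM in wild type replicates, and the 6 cartilage markers to 820.2, 121 and 976 FPKM in PALMD+/- replicates, against 998, 942 and 865 FPKM in wild type replicates. Summed cardiac muscle markers stayed between 7.79 and 18.6 FPKM and skeletal muscle markers between 2.61 and 4.75 FPKM in all libraries, with Myh7, Nppa and Myh4 at 0 in some. In whole tissue, fewer cells of a type and less RNA per cell cannot be told apart.

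**Figure D1:**
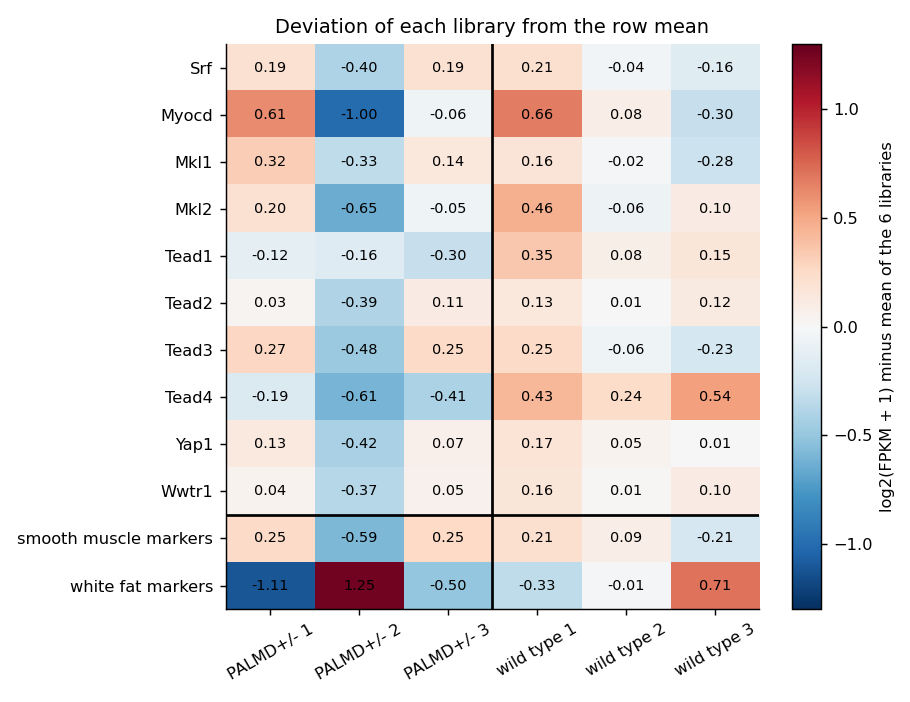
Heat map of log2(FPKM + 1) minus the mean of the 6 libraries, for the 10 transcripts (upper rows) and the mean level of the smooth muscle and white adipocyte markers (lower rows), with PALMD+/- libraries to the left of wild-type libraries. PALMD+/- replicate 2 is the lowest library for 9 of the 10 transcripts, against 34.2% of all tested genes. It is also the lowest for the smooth muscle markers (-0.59), and the highest for the fat markers (1.25).

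Across the 10 transcripts, Tead4 and Tead1 were lower in every PALMD+/- library than in every wild-type library, and the other 8 overlapped between the groups. Tead4 was at 43.8% and Tead1 at 72.8% of the wild-type mean. None of the 10 passed an adjusted p of 0.05 in limma's test of log2(FPKM + 1) over 12620 genes, a rule that 0.00% of all tested genes met. Separation with all PALMD+/- values below all wild-type values was seen for 2 of the 10 transcripts, against 5.12% of all tested genes, and separation in the other direction for 0, against 7.80%. The fitted difference was below 0 for 8 of the 10, with a median of -0.18 on the log2 scale, against 46.9% of all genes and a median of 0.01. Without PALMD+/- replicate 2 it was below 0 for 5 of the 10 and the median was 0.0029, against a median over all genes of 0.03.

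Levels per length ran in nearly the same order in both genotypes. In PALMD+/- libraries the order by mean was Wwtr1, Srf, Tead3, Yap1, Myocd, Mkl1, Mkl2, Tead1, Tead2 and Tead4, and in wild type Myocd stood before Yap1 and Mkl2 before Mkl1. In wild type, Wwtr1 was above Srf, Yap1 above Mkl2, Tead1 above Tead2 and Tead2 above Tead4 without overlap between libraries, whereas the ranges of the other neighbours overlapped. In PALMD+/- libraries the neighbours that did not overlap were Tead3 above Yap1, Tead1 above Tead2 and Tead2 above Tead4. Reads could be recovered from FPKM and gene length as whole numbers, within 0.05 reads, for 8 of the 10 transcripts and not for Srf and Tead3. Across the 10 the reads per library ranged from 65 to 3380, with Tead4 the most shallowly covered.

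**Figure D2:**
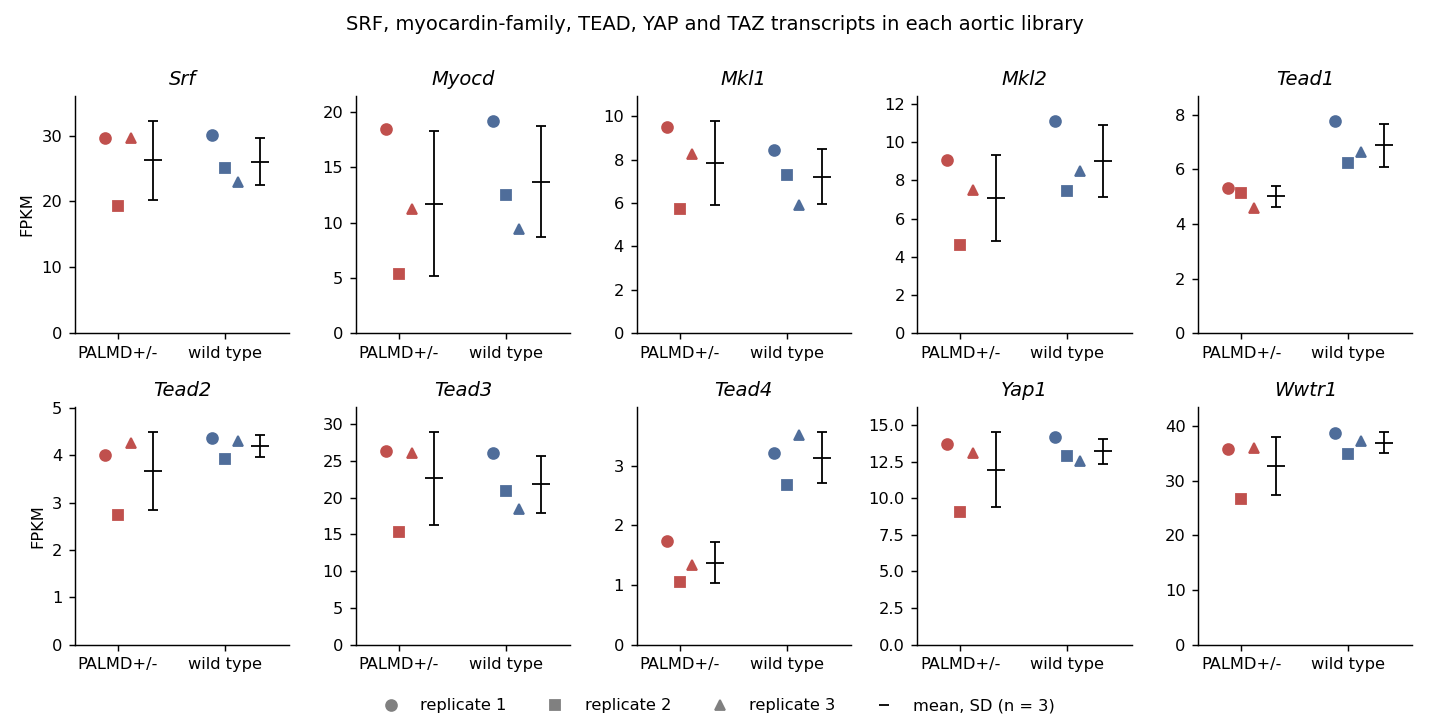
FPKM of each transcript in the 3 PALMD+/- libraries (red, left) and the 3 wild-type libraries (blue, right), with 1 symbol per replicate number and the mean and SD in black. Tead4 and Tead1 show no overlap between the genotypes, and in the other panels the square of PALMD+/- replicate 2 is the lowest point.

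Srf (ENSMUSG00000015605), on chromosome 17 of GRCm38 at 46548329 to 46556175, measured 29.7, 19.4 and 29.7 FPKM in PALMD+/- replicates 1 to 3, against 30.01, 25.1 and 23.0 FPKM in wild type replicates 1 to 3. PALMD+/- replicate 2 was the lowest library, and the other PALMD+/- values lay within the wild-type range. The means were 26.2 ± 5.96 FPKM in PALMD+/- and 26.0 ± 3.597 FPKM in wild type (SD, n = 3 each), with a log2 difference of -0.01 (SE 0.20, 95% interval -0.48 to 0.47, limma adjusted p = 0.999). The interval spans folds of 0.715 to 1.38.

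Myocd, the smooth muscle cofactor of SRF (ENSMUSG00000020542, chromosome 11, 65176561 to 65269989), varied more between libraries than the other transcripts. It was at 18.4, 5.36 and 11.2 FPKM in PALMD+/- replicates 1 to 3, against 19.2, 12.5 and 9.37 FPKM in wild type replicates 1 to 3. Replicate 1 was the highest in each group, and the groups overlapped. The log2 difference came to -0.30 with an SE of 0.44 and a 95% interval of -1.35 to 0.75 (limma adjusted p = 0.953). Without PALMD+/- replicate 2, where the smooth muscle markers were also lowest, it was 0.13. With the smooth muscle level as a covariate, an alternative chosen after seeing the data, it was -0.21 (limma adjusted p = 0.644). With the white adipocyte level it was -0.47 (limma adjusted p = 0.132). Under either covariate more of all genes had a small unadjusted limma p, with the shares given for Tead4 below.

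Mkl1 (ENSMUSG00000042292, chromosome 15, 81012281 to 81190757, named Mrtfa in GENCODE) was at 9.52, 5.71 and 8.27 FPKM in PALMD+/- libraries, against 8.42, 7.30 and 5.91 FPKM in wild-type libraries. Mkl2 (ENSMUSG00000009569, chromosome 16, 13256481 to 13417529, named Mrtfb) was at 9.08, 4.63 and 7.50 FPKM in PALMD+/- libraries, against 11.1, 7.43 and 8.47 FPKM in wild-type libraries. Both overlapped between the groups, with PALMD+/- replicate 2 lowest. The log2 differences were 0.09 for Mkl1 (SE 0.20, limma adjusted p = 0.970) and -0.33 for Mkl2 (SE 0.24, limma adjusted p = 0.891). Myocd made up 49.8%, 34.1% and 41.6% of the summed FPKM of these 3 cofactors in PALMD+/- replicates 1 to 3, against 49.5%, 45.9% and 39.5% in wild type replicates 1 to 3. That share did not separate the groups (exact two-sided permutation p = 0.7), in which 0.1 is the smallest p that 3 libraries against 3 allow.

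Tead4 showed the widest separation of the 10 transcripts. It encodes a TEAD factor known for its role in the trophectoderm of the early embryo and in muscle differentiation, and lies on chromosome 6, 128224288 to 128300823 (ENSMUSG00000030353). It was at 1.74, 1.05 and 1.34 FPKM in PALMD+/- replicates 1 to 3, from 114, 65 and 88 recovered reads, against 3.21, 2.68 and 3.52 FPKM in wild type replicates 1 to 3, from 211, 177 and 228 reads. The highest PALMD+/- value was below the lowest wild-type value. The means were 1.37 ± 0.346 FPKM in PALMD+/- and 3.14 ± 0.425 FPKM in wild type (SD, n = 3 each). The log2 difference of log2(FPKM + 1) was -0.81 (SE 0.15, 95% interval -1.16 to -0.45), with a limma unadjusted p = 0.00116 and a limma adjusted p = 0.531. By exact permutation the two-sided p was 0.1, the smallest possible. At this low level the added 1 FPKM understates the change, and with 0.1 FPKM added the log2 difference was -1.15.

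The Tead4 difference was also fitted with marker levels as covariates. With the white adipocyte level as a covariate the log2 difference was -0.83 (limma adjusted p = 0.0628). With the smooth muscle level it was -0.79 (limma adjusted p = 0.117). The share of all genes with an unadjusted limma p under 0.05 was 18.9% with the fat covariate and 15.3% with the muscle covariate. With neither that share was 6.50%. Leaving out each library in turn gave Tead4 differences of -0.91 to -0.70. With array quality weights, which gave PALMD+/- replicate 2 a weight of 0.170 and replicate 3 one of 3.59, Tead4 passed (log2 difference -0.72, limma adjusted p = 0.0374), as did 1.84% of all genes. Over 16 settings in all, the limma adjusted p of Tead4 ranged from 0.0374 to 1.00.

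Tead1, a TEAD factor widely expressed in muscle (ENSMUSG00000055320, chromosome 7, 112679318 to 112906807), was at 5.33, 5.12 and 4.57 FPKM in PALMD+/- replicates 1 to 3, against 7.77, 6.23 and 6.63 FPKM in wild type replicates 1 to 3. The groups did not overlap, and PALMD+/- replicate 2 was not the lowest library here. The means were 5.01 ± 0.395 FPKM in PALMD+/- and 6.88 ± 0.797 FPKM in wild type (SD, n = 3 each), from 1132 to 1926 reads per library. The log2 difference was -0.39 (SE 0.11, 95% interval -0.65 to -0.12, limma unadjusted p = 0.0113, adjusted p = 0.616). It was -0.39 with either the white adipocyte or the smooth muscle level as a covariate, and -0.45 to -0.31 with each library left out in turn. At an unadjusted p under 0.05 Tead4 and Tead1 were the 2 transcripts of the 10, both lower, whereas 2.44% of all genes met that rule with a lower level, 4.06% with a higher level and 6.50% in either direction.

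Tead3, the most abundant TEAD transcript (ENSMUSG00000002249, chromosome 17, 28331671 to 28350817), was at 26.4, 15.4 and 26.1 FPKM in PALMD+/- replicates, against 26.1, 20.9 and 18.4 FPKM in wild type replicates. Its groups overlapped, with a log2 difference of 0.03 (SE 0.24, limma adjusted p = 0.994). Without PALMD+/- replicate 2 the remaining PALMD+/- values lay above all wild-type values and the difference was 0.27 (limma adjusted p = 0.449), a separation that 20.7% of all genes showed in that direction. Tead2, a factor best known from the embryo (ENSMUSG00000030796, chromosome 7, 45215753 to 45233644), was at 4.00, 2.73 and 4.27 FPKM in PALMD+/- replicates, against 4.37, 3.92 and 4.30 FPKM in wild type replicates. Its log2 difference was -0.17 (SE 0.15, limma adjusted p = 0.924), and -0.02 without PALMD+/- replicate 2, the lowest library.

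The shares of Tead4 and Tead3 within the TEAD family separated the groups, and the family's sum did not. Summed over the 4 TEAD transcripts, FPKM was 37.5, 24.3 and 36.3 in PALMD+/- replicates, against 41.4, 33.8 and 32.9 in wild type replicates, and the groups overlapped. Tead4 was 4.63%, 4.31% and 3.69% of that sum in PALMD+/- replicates 1 to 3, against 7.75%, 7.93% and 10.7% in wild type replicates 1 to 3. Tead3 was 70.5%, 63.3% and 72.0% in PALMD+/- replicates, against 63.0%, 62.0% and 56.0% in wild type replicates. Neither share overlapped between the groups, and both had the smallest possible exact two-sided permutation p of 0.1 (0.45 after Benjamini-Hochberg adjustment over the 9 shares computed in the 3 families). The shares of 1 family sum to a fixed total, so these are not independent of each other or of the Tead4 level. The Tead4 share differed by -4.58 percentage points over all libraries, and by -5.11 to -3.63 with each library left out in turn.

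**Figure D3:**
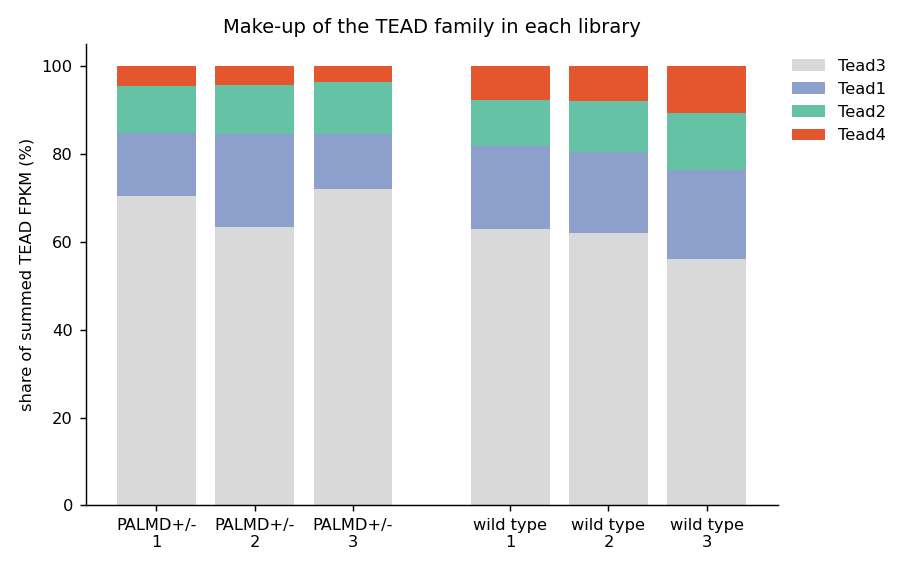
Stacked bars of the share of each TEAD transcript in the summed FPKM of the 4, in percent, for the PALMD+/- libraries (left) and the wild-type libraries (right). Tead4, at the top of each bar, takes 3.69% to 4.63% in PALMD+/- libraries and 7.75% to 10.7% in wild-type libraries.

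The TEAD coactivators did not separate the genotypes. Yap1 (ENSMUSG00000053110, chromosome 9, 7931999 to 8004596) was at 13.7, 9.04 and 13.1 FPKM in PALMD+/- replicates 1 to 3, against 14.2, 12.9 and 12.5 FPKM in wild type replicates 1 to 3. Wwtr1, which encodes TAZ (ENSMUSG00000027803, chromosome 3, 57455649 to 57575910), was at 35.7, 26.7 and 36.0 FPKM in PALMD+/- replicates, against 38.7, 35.0 and 37.3 FPKM in wild type replicates. In both, PALMD+/- replicate 2 was the only library below the wild-type range. The log2 differences were -0.15 for Yap1 (SE 0.16, 95% interval -0.55 to 0.25, limma adjusted p = 0.936) and -0.18 for Wwtr1 (SE 0.15, 95% interval -0.53 to 0.17, limma adjusted p = 0.915), and 0.02 and -0.04 without that library. The ratio between them was nearly fixed, with Wwtr1 at 72.2%, 74.7% and 73.3% of their sum in PALMD+/- replicates, against 73.2%, 73.0% and 74.8% in wild type replicates (exact two-sided permutation p = 0.8).

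**Figure D4:**
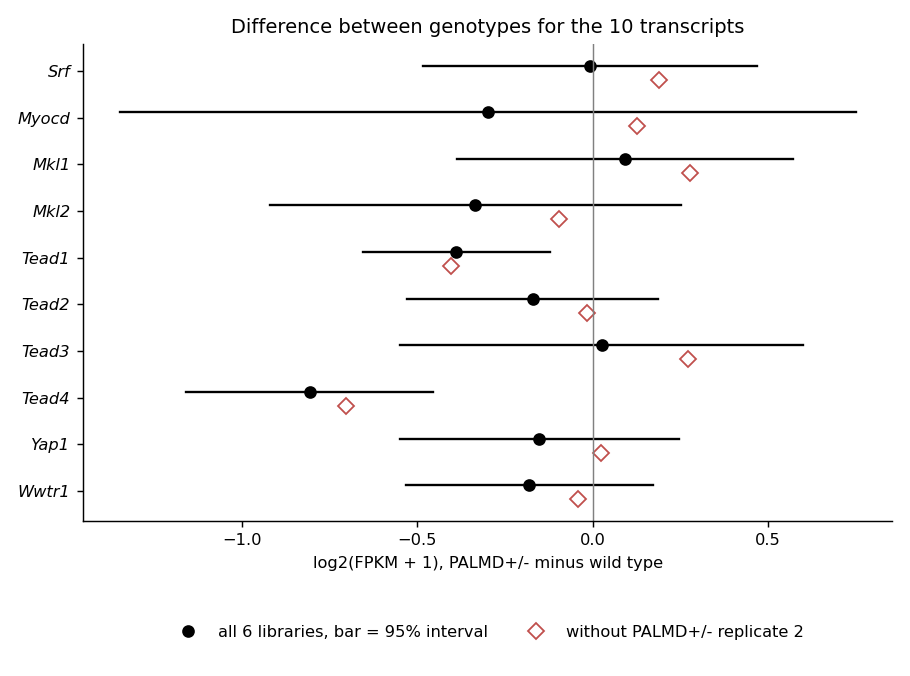
Difference in log2(FPKM + 1), PALMD+/- minus wild type, for the 10 transcripts, as fitted by limma over all 6 libraries (black points with 95% interval) and without PALMD+/- replicate 2 (open red diamonds). The intervals of Tead4 (-1.16 to -0.45) and Tead1 (-0.65 to -0.12) lie below 0 before any adjustment for multiple tests. The diamonds of all transcripts except Tead1, with Tead4 among them, lie to the right of the black points.

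Palmd itself was at 5.31, 7.19 and 6.21 FPKM in PALMD+/- replicates, against 5.49, 7.88 and 10.1 FPKM in wild type replicates, so that its overlapping values do not check the genotype labels. Exons of another gene overlapped those of Mkl1, Mkl2, Tead2 and Yap1 by 0.164% to 1.80% of their exon length, all on the opposite strand, and the library kit is not described as keeping strand. No exon of another gene overlapped Tead4, Tead1, Tead3, Srf, Myocd or Wwtr1.

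Among 11293 tested genes with a name, those with the most similar profiles were found by the root mean square distance between log2(FPKM + 1) values over the 6 libraries, each centred on its own mean. For Tead4 they were the kinesin Kif26a (distance 0.0781), the phosphatase regulator Ppp1r16b (0.133) and the cytolinker Plec (0.141). Kif26a was at 8.97, 6.83 and 7.55 FPKM in PALMD+/- replicates, against 13.5, 14.0 and 16.5 FPKM in wild type replicates. For Tead1 they were Lonrf1 (0.0575), Mettl4 (0.0649) and Flrt1 (0.0658). For Srf they were Thbs3 (0.0291), Mical1 (0.0326) and Gatsl3 (0.0335), for Yap1 Bcr (0.0309), Serf2 (0.0322) and Ptma (0.0328), and for Myocd Chsy3 (0.121), Wee1 (0.141) and Filip1l (0.148), the last a cytoskeletal SRF target in the list below. The distance describes these 6 libraries only.

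Of 24 partners and regulators of SRF, all tested, 0 passed, and the fitted difference was above 0 for 9 and below 0 for 15 (median -0.15, or 0.06 without PALMD+/- replicate 2). The cytoskeletal kinase Rock2 was at 19.1, 10.2 and 15.6 FPKM in PALMD+/- replicates, against 23.4, 19.1 and 20.0 FPKM in wild type replicates (log2 difference -0.49, SE 0.22, limma adjusted p = 0.781). The GTPase Rhoa, which drives actin polymerisation, was at 37.8, 32.0 and 37.6 FPKM in PALMD+/- replicates, against 40.6, 41.8 and 42.9 FPKM in wild type replicates. These were the 2 genes of the list whose groups did not overlap, with Rock2 in PALMD+/- replicate 1 and wild type replicate 2 equal to 3 digits. Over all genes 5.12% were lower without overlap, so the count of 2 among 24 is near that share. The repressor of smooth muscle genes Klf4 and the LIM protein Csrp2 overlapped between the groups. Their log2 differences were -0.70 and -0.51, or -0.18 and -0.20 when PALMD+/- replicate 2 was left out.

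The contractile targets of myocardin and SRF did not separate the genotypes. Of 20 genes 19 were tested and 0 passed, with 6 above 0 and 13 below (median -0.08) and no gene without overlap. PALMD+/- replicate 2 was the lowest library for 18 of the 19, against 34.2% of all genes, and without it 15 were above 0 and 4 below (median 0.18). The junctional membrane protein Jph2 had a log2 difference of -0.33 (SE 0.26), the actin-binding Nexn one of -0.34 (SE 0.29), Tagln one of -0.20 (SE 0.21) and the caldesmon gene Cald1 one of -0.17 (SE 0.25). All 6 smooth muscle markers belong to this list, so that target genes and smooth muscle content cannot be told apart here.

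The cytoskeletal targets of MRTF and SRF were mostly lower in the same library. All 24 were tested and 0 passed, with 1 above 0 and 23 below (median -0.20). PALMD+/- replicate 2 was the lowest library for all 24, against 34.2% of all genes. Without it 13 were above 0 and 11 below (median 0.06). The LIM protein Pdlim5 was at 33.6, 15.4 and 28.5 FPKM in PALMD+/- replicates, against 41.5, 34.2 and 36.8 FPKM in wild type replicates (log2 difference -0.59, SE 0.28, limma adjusted p = 0.798). The fibronectin receptor chain Itga5, the actin-severing cofactor Wdr1 and the cytoplasmic actin Actg1 had log2 differences of -0.75, -0.34 and -0.37, and of -0.30, -0.13 and -0.14 without that library. Groups did not overlap for 4 of the 24 (Actg1, Tpm4, Pdlim5 and Itga5, all lower), against 5.12% of all genes in that direction and 7.80% in the other. The CArG box was in a promoter window of 5 of the 23 genes with an entry (Actg1, Cnn2, Filip1l, Lima1 and Vcl), that is 21.7%, against 1.81% of all genes with an entry. It was in 1 of 15 contractile targets with an entry (6.67%) and in 1 of 9 immediate early targets (11.1%). In lists not chosen as SRF targets, it was in 3 of 17 SRF partners and regulators (17.6%). The share was 0 for the Hippo list, for the partners and regulators of YAP, TAZ and TEAD, and for the YAP and TAZ targets. Among the targets with no entry were Tagln, Myh11, Actg2, Egr1, Egr3 and Ier2. Only exact matches inside the windows were counted, so a gene without a match may still have a CArG box.

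Of the immediate early targets, which SRF serves with the ELK factors, most had fitted differences below 0. All 12 were tested and 0 passed after adjustment, with 1 above 0 and 11 below (median -0.48). At an unadjusted p under 0.05 there were 4, all lower, where 2.44% of all genes met that rule with a lower level. The same 4 had groups that did not overlap, against 5.12% of all genes in that direction. The AP-1 subunit Junb was at 51.1, 28.5 and 36.0 FPKM in PALMD+/- replicates, against 91.1, 122.8 and 66.6 FPKM in wild type replicates (log2 difference -1.25, SE 0.29, limma adjusted p = 0.548). The nuclear receptor Nr4a1 was at 117, 44.8 and 75.5 FPKM in PALMD+/- replicates, against 229, 312 and 135 FPKM in wild type replicates (log2 difference -1.52, SE 0.43, limma adjusted p = 0.616). Ier2 and the zinc finger factor Egr2 had log2 differences of -0.88 (SE 0.21) and -0.47 (SE 0.12). Without PALMD+/- replicate 2 the 4 genes were at -1.06, -1.17, -0.68 and -0.42, and 9 of the 12 stayed below 0 (median -0.34). Elk1, Elk3 and Elk4 overlapped between the groups, with log2 differences of 0.11, -0.15 and 0.03. Srf, Mkl1 and Mkl2 overlapped over the same libraries too, as described above. The cause of the lower immediate early values was not tested.

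Upstream of YAP and TAZ, the 20 Hippo kinases and scaffolds were all tested and 0 passed, with 5 above 0 and 15 below (median -0.07, or 0.01 without PALMD+/- replicate 2). The scaffold Sav1, which holds the kinases together, was at 8.12, 7.62 and 7.92 FPKM in PALMD+/- replicates, against 9.09, 8.59 and 12.02 FPKM in wild type replicates (log2 difference -0.28, SE 0.13, limma adjusted p = 0.798). Its groups did not overlap, nor did those of the kinase Stk3, which was also lower, where 5.12% of all genes were lower without overlap. The kinase Map4k3, the scaffold Wwc2 and the kinase activator Mob1a had overlapping groups and log2 differences of -0.18, -0.22 and -0.21.

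Of 20 partners and regulators of YAP, TAZ and TEAD 18 were tested and 0 passed, with 5 above 0 and 13 below (median -0.06, or -0.01 without PALMD+/- replicate 2). Amotl2, an angiomotin that binds YAP, was at 34.3, 31.2 and 36.2 FPKM in PALMD+/- replicates, against 33.2, 18.6 and 15.6 FPKM in wild type replicates (log2 difference 0.64, SE 0.27, limma adjusted p = 0.770). Wild type replicate 1 reached the PALMD+/- range, so the groups overlapped. The ubiquitin ligase subunit Btrc was higher without overlap (log2 difference 0.25, SE 0.11), as were 7.80% of all genes. The phosphatase Ptpn14, which restrains YAP, had a log2 difference of -0.52 (SE 0.26) with overlapping groups.

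Of 22 YAP and TAZ targets 20 were tested and 0 passed, with 5 above 0 and 15 below (median -0.26). Without PALMD+/- replicate 2 there were 13 above 0 and 7 below (median 0.01). Ankrd1, a stretch-responsive repeat protein, was at 5.99, 1.67 and 6.17 FPKM in PALMD+/- replicates, against 13.02, 8.73 and 6.48 FPKM in wild type replicates (log2 difference -0.98, SE 0.43, limma adjusted p = 0.772, and -0.51 without PALMD+/- replicate 2). Ankrd1 and Dock5, a Rac exchange factor (log2 difference -0.28, SE 0.13), were the 2 genes of the list whose groups did not overlap, both lower, against 5.12% of all genes in that direction. Amotl2 and Ptpn14, members of this list too, are given above. Of the genes listed, 4 stand in 2 lists (Amotl2, Cyr61, Lats2 and Ptpn14). The MCAT core was in a promoter window of 7 of the 15 genes with an entry (Amotl2, Ankrd1, Axl, Crim1, Cyr61, Lats2 and Ptpn14), that is 46.7%, against 16.6% of all genes with an entry. In lists not chosen as YAP and TAZ targets, the share was 40% for contractile, 44.4% for immediate early and 21.7% for cytoskeletal SRF targets. It was 11.8% for the SRF partners and regulators, 23.5% for the Hippo list and 50% for partners and regulators of YAP, TAZ and TEAD. The matricellular genes Ctgf and Cyr61, added after their values were seen, had overlapping groups. Ctgf was at 359, 94.2 and 368 FPKM in PALMD+/- replicates, against 416, 296 and 238 FPKM in wild type replicates. Cyr61 was at 170, 48.1 and 208 FPKM in PALMD+/- replicates, against 207, 87.0 and 49.8 FPKM in wild type replicates.

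**Figure D5:**
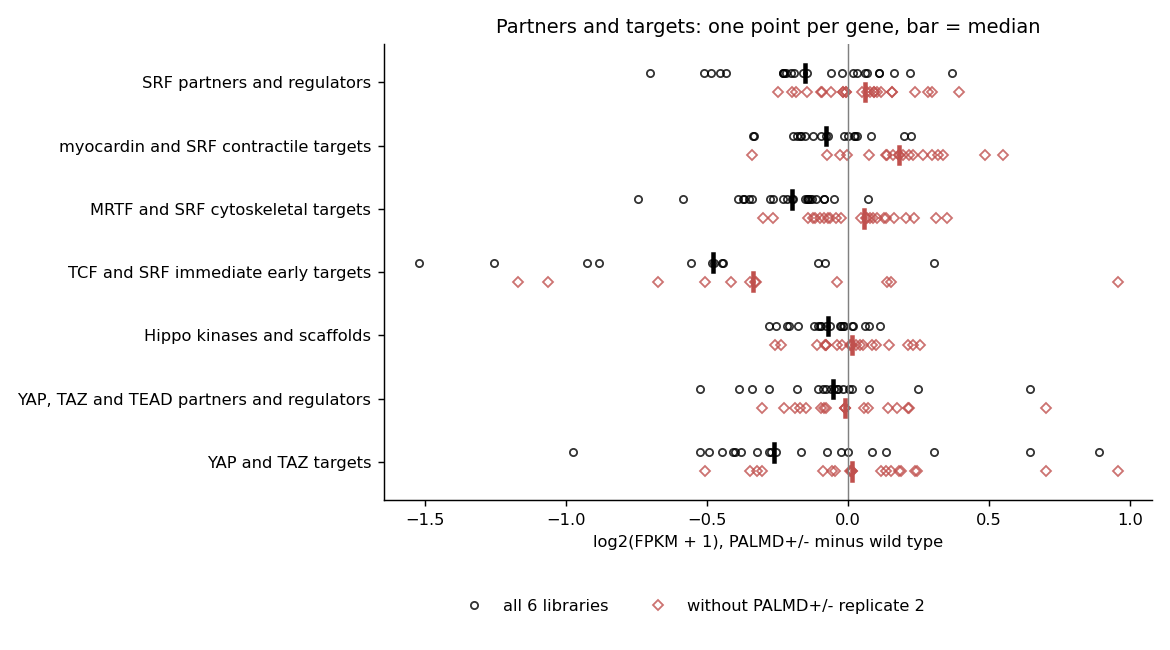
Difference in log2(FPKM + 1), PALMD+/- minus wild type, for each tested gene of the 7 lists of partners and targets, over all 6 libraries (black circles) and without PALMD+/- replicate 2 (red diamonds), with the median as a bar. Without that library 6 of the 7 medians lie between -0.01 and 0.18, and that of the immediate early targets is -0.34.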

How the data were processed

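The deposited files hold FPKM, calculated by the authors, with 1 file per library. The unit was read from the values, and whether reads or fragments were counted is not stated. Per the submitters' processing notes HISAT2 2.1.0, Bowtie2 2.2.3, TopHat2 and GRCm38 were used, without roles. No counting tool or annotation is named in the sources. Value times exon-union length (GENCODE M21) was a whole number of reads, within 0.01, for 95.0% to 95.5% of genes with up to 20 reads, which gave the reads per library. File headers number the PALMD+/- libraries differently from the titles, which were used.

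The 12620 genes reaching 1 FPKM in 3 or more libraries were fitted as log2(FPKM + 1) with limma 3.58.1 (mean-variance trend, R 4.3.3), PALMD+/- minus wild type, no covariate, two-sided, Benjamini-Hochberg adjustment over all genes. The fit was tested on simulated data. Single values were compared by exact permutation (scipy 1.17.1). The 10 transcripts were found by symbol. From each of 7 lists of partners and targets, described by counts and medians, up to 4 genes with the smallest unadjusted p were named, beside genes singled out in the text. Members and lists were chosen with earlier results of these data known.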

Additional observations from a re-analysis of the deposited data

How the results depend on the processing

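With array quality weights 232 genes and 1 of the 10 transcripts passed (Tead4, log2 difference -0.72), where the comparison of all 6 libraries with equal weights gave 0 and 0. A smaller pseudocount (0.1 FPKM), no filter, a filter of 0.1 FPKM, quantile normalization, limma voom on recovered reads and the white adipocyte or smooth muscle level as a covariate gave 0 in both. By limma 820 genes, and by voom 815, had an unadjusted p under 0.05. Of 90 differences of the 10 transcripts under these settings and the block, 84 kept direction and side of the threshold. Srf turned to 0.0130 with quantile normalization, 0.20 with array weights and 0.0340 with the smooth muscle covariate, Tead2 to 0.0251 with array weights, and Tead3 to -0.0602 with the white adipocyte covariate. The cause was not tested.

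Leaving out each library in turn gave 0 to 1 genes and 0 of the 10 transcripts past the threshold. The log2 difference ranged from -0.11 to 0.19 for Srf, -0.68 to 0.13 for Myocd, -0.0474 to 0.28 for Mkl1, -0.10 to 0.27 for Tead3 and -0.25 to 0.0226 for Yap1, and it kept its sign for the other 5. The Wwtr1 share differed by -0.922 to 0.303 percentage points and the Myocd share by -7.06 to 0.758, whose upper end came without PALMD+/- replicate 2. Genes below 0 numbered 4 to 16 for the contractile targets, 11 to 24 for the cytoskeletal targets, 8 to 18 for the Hippo list and 7 to 16 for the YAP and TAZ targets, each lowest without PALMD+/- replicate 2.

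The labels do not say whether shared replicate numbers pair the libraries, and 3 libraries a group are too few to tell. Deviations from the group means correlated at 0.51, -0.09 and -0.34 for numbers 1 to 3, and PALMD+/- replicates 2 and 3 correlated best with another number. With the replicate block 0 genes passed, and Tead4 was at -0.81 with a limma adjusted p of 0.790. The values rest on 3 libraries a group, and Tead4 in PALMD+/- libraries on 65 to 114 reads.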

Other observations

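Igfbp3, the insulin-like growth factor binding protein among the YAP and TAZ targets, was looked at after its value was seen as the highest difference of its list. It was at 3.10, 23.8 and 5.98 FPKM in PALMD+/- replicates 1 to 3, against 4.51, 3.10 and 3.94 FPKM in wild type replicates 1 to 3. The log2 difference of 0.89 (SE 0.62, limma adjusted p = 0.884) was 0.15 without PALMD+/- replicate 2. Egr3, an immediate early zinc finger factor, was also looked at after its value was seen. It was at 6.21, 1.46 and 3.79 FPKM in PALMD+/- replicates, against 12.7, 8.47 and 3.49 FPKM in wild type replicates, and its groups overlapped.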
